A study of Flaveria angustifolia and Flaveria bidentis and Flaveria brownii with 21 samples.

Results

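The chloroplast NADH dehydrogenase-like (NDH) complex takes electrons from ferredoxin and passes them to plastoquinone in the thylakoid membrane. This closes a cyclic electron route around photosystem I that makes ATP without net NADPH. C4 photosynthesis needs more ATP for each CO2 fixed than C3 photosynthesis does, and in C4 species with NADP-malic enzyme the complex is known to be abundant in bundle sheath chloroplasts. Its catalytic arm stands on the stromal side of the membrane and is put together with the help of soluble assembly factors. Described here are 10 nuclear genes of that arm, taken by Arabidopsis locus from the 20551 loci of the deposited table. NDHL (AT1G70760), NDHM (AT4G37925), NDHN (AT5G58260) and NDHO (AT1G74880) are subunits of the stromal subcomplex A. NDHS (AT4G23890), NDHT (AT4G09350) and NDHU (AT5G21430) make up the ferredoxin-binding side. CRR1 (AT5G52100), CRR6 (AT2G47910) and CRR7 (AT5G39210) are stromal factors needed to assemble subcomplex A. These roles are known from Arabidopsis, and the symbols are textbook symbols for the loci.

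RNA came from leaves of 11 Flaveria species, daisy-family plants among which C3, intermediate and C4 species occur side by side, as 18 libraries. The C4 species were F. kochiana (mature leaves), F. bidentis and F. trinervia (both stages). The C4-like species were F. brownii (both stages), F. palmeri and F. vaginata (juvenile leaves). The C3-C4 intermediates were F. angustifolia and F. pubescens (both stages) and F. sonorensis (juvenile leaves), and the C3 species were F. pringlei and F. cronquistii (both stages). These types are textbook knowledge, not labels. Mature leaves were the newest fully expanded ones, and juvenile leaves had just begun to expand from the main stem. All plants were untreated and grown in a greenhouse, and each library pooled leaves of several plants of 1 species. The study set out to rebuild the family tree of the genus. Each species and stage has 1 library, and species serve as replicates of a type. C4 plus C4-like species are called C4-type below (9 libraries of 6 species), and C3 plus C3-C4 species C3-type (9 libraries of 5 species). In the textbook tree, 5 of the 6 C4-type species form clade A, F. brownii and F. pubescens form clade B, and the other C3-type species branch off earlier, so photosynthetic type and shared ancestry cannot be told apart.

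Values are reads per 1e+06 assigned reads (RPM) of Flaveria reads matched to an Arabidopsis locus, and RPM is not scaled for gene length, so levels are compared between libraries and not between genes. Libraries held between 5.40 and 9.15 M assigned reads (M, 1e+06 reads), with 6.54 to 9.15 M in the 5 C4 and 5.40 to 6.35 M in the 4 C3 libraries. None of the 10 genes was at 0 in any library, and all 10 passed the filter of a mean of 2 RPM. The smallest number of reads behind a value was 16. PPDK, the C4 enzyme that regenerates the CO2 acceptor, checked the types, with 2978 to 37263 RPM in C4-type and 65.0 to 3109 RPM in C3-type libraries and no overlap within a leaf stage. Green leaf genes were high throughout. A list of 5 (RBCS1A, RCA, PSAD1, LHCA1 and PSBO2) summed to between 15028 and 42031 RPM in C4-type and between 28888 and 83532 RPM in C3-type libraries. The summed flower markers AP3, PI, AG and SEP3 reached at most 17.8 RPM, and PI was at 0 in 11 libraries. In bulk leaf RNA, fewer cells of a type and less RNA per cell cannot be told apart.

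Most stromal-arm genes were higher in C4-type than in C3-type leaves. Of the 10 genes, 8 passed the test as higher, 6 of the 7 subunits and 2 of the 3 assembly factors, and 0 as lower, against 0.974% of the 14479 tested loci called higher and 0.428% called lower. The median log2 fold change of the 10 was 1.64, beside -0.00069 over all tested loci. NDHT and CRR6 did not pass, and both had positive estimates. The test was limma on log2(RPM + 1) in all 18 libraries, with leaf stage in the model and the species as a random effect, two-sided and adjusted by Benjamini-Hochberg over all tested loci. The count of 8 was 4 under TMM scaling (a trimmed-mean correction of library totals, 0.822% of loci higher), which left NDHM, NDHN, NDHO and NDHU, and 2 with 1 value per species (0.414%), NDHN and NDHU. In juvenile libraries alone it was 1, NDHU (0.2% of loci) and in mature libraries alone 0 (0.0431%), while edgeR's quasi-likelihood test on the recovered reads called 8 (2.58%). The edgeR fit of types had no species term, so both libraries of a species counted as independent. With 1 species left out, the limma count was 2 without F. cronquistii (0.45% of loci higher), 4 without F. bidentis (0.612%), 4 without F. palmeri (0.662%), 5 without F. trinervia (0.722%) and 5 without F. vaginata (0.628%). NDHN and NDHU passed without each of the 11 species in turn.

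**Figure D1:**
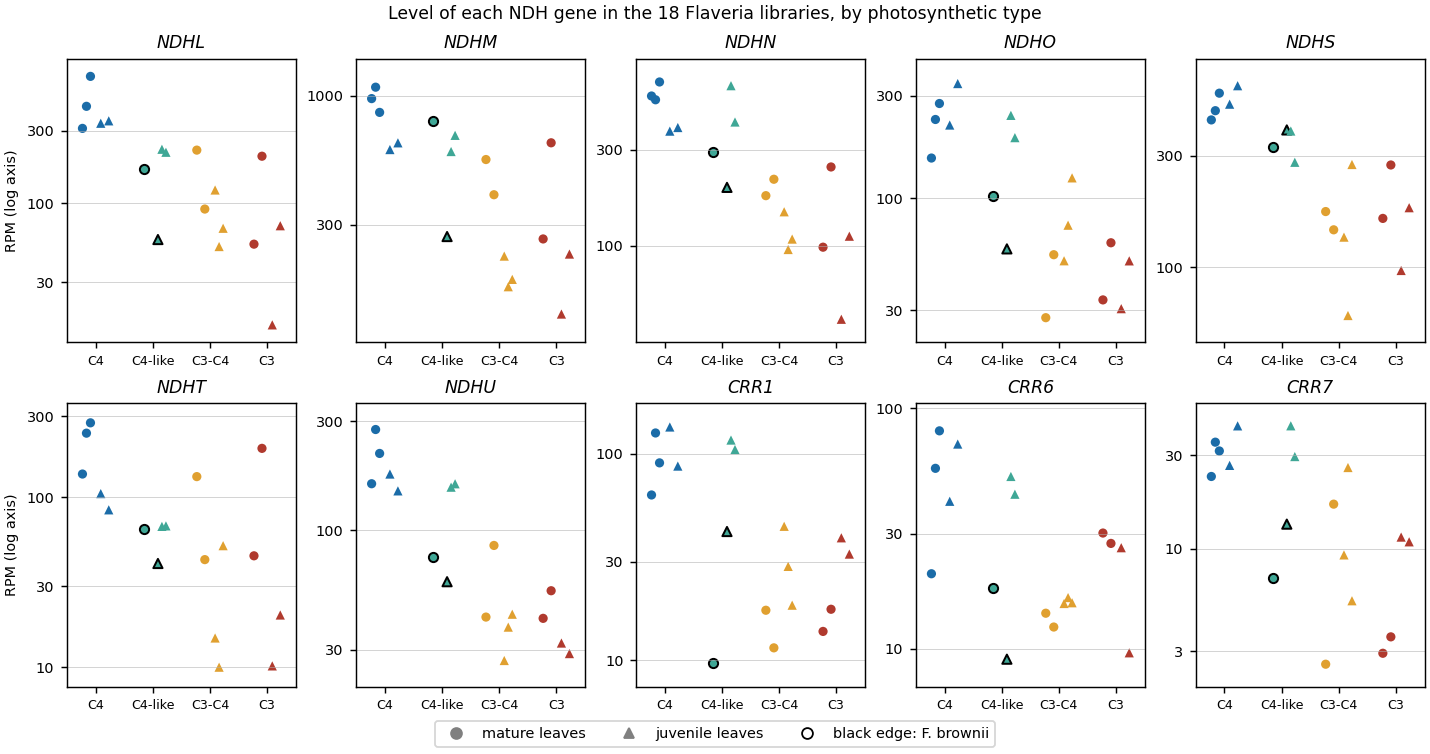
RPM (log axis) of each of the 10 genes in the 18 libraries, by photosynthetic type. Circles are mature and triangles juvenile leaves, each symbol is 1 library, and a black edge marks F. brownii. The NDHS panel shows C4-type and C3-type libraries with no overlap, by a narrow gap, and the share of all loci like this was not computed. F. brownii lies with or near the C3-type libraries for CRR1 and CRR6.

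NDHL is a small membrane-spanning protein thought to anchor the stromal arm in the membrane. In mature leaves NDHL stood at 310.3 RPM in F. kochiana, 683 in F. trinervia, 434 in F. bidentis and 168 in F. brownii. The mature C3-type libraries had 223 RPM in F. angustifolia, 91.2 in F. pubescens, 203 in F. pringlei and 53.6 in F. cronquistii. F. kochiana, F. bidentis and F. trinervia were above every C3-type library, whereas F. brownii was below F. angustifolia and F. pringlei, so the groups overlapped. In juvenile leaves NDHL was 348 RPM in F. trinervia, 335 in F. bidentis, 226 in F. palmeri, 216 in F. vaginata and 57.5 in F. brownii. Juvenile C3-type leaves had 122 RPM in F. angustifolia, 68.2 in F. sonorensis, 51.7 in F. pubescens, 70.8 in F. pringlei and 15.7 in F. cronquistii. F. brownii again fell among the C3-type species, and F. cronquistii was the lowest. Adjusted for stage, NDHL was higher in C4-type leaves by a log2 fold change of 1.74 ± 0.39 (SE; limma adjusted p = 0.0278). That call was lost under TMM scaling (adjusted p = 0.0518 in limma), with 1 value per species, within either stage, and without 6 of the 11 species, F. bidentis, F. cronquistii, F. palmeri, F. pubescens, F. trinervia and F. vaginata.

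NDHM is a soluble subunit of the same subcomplex. Mature C4-type libraries had 976 RPM in F. kochiana, 858 in F. trinervia, 1086 in F. bidentis and 790.4 in F. brownii. NDHM in mature C3-type leaves was 553 RPM in F. angustifolia, 398 in F. pubescens, 646 in F. pringlei and 263 in F. cronquistii. The groups did not overlap, with F. brownii closest to F. pringlei. Juvenile C4-type leaves held 646 RPM in F. trinervia, 606 in F. bidentis, 595 in F. palmeri, 692 in F. vaginata and 269 in F. brownii. For NDHM the juvenile C3-type values were 224 RPM in F. angustifolia, 180.5 in F. sonorensis, 169 in F. pubescens, 229 in F. pringlei and 131 in F. cronquistii. The juvenile groups did not overlap either, although F. brownii lay far below the other C4-type species. NDHM was higher in C4-type leaves, with a log2 fold change of 1.38 ± 0.26 (SE; limma adjusted p = 0.00897), and did not pass without F. cronquistii, with 1 value per species or within either stage.

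NDHN is a further soluble subunit, and its groups were separate at both stages. NDHN in mature C4-type leaves was 555 RPM in F. kochiana, 652 in F. trinervia, 532 in F. bidentis and 294 in F. brownii. Mature C3-type leaves had 177 RPM in F. angustifolia, 214 in F. pubescens, 246 in F. pringlei and 98.1 in F. cronquistii. F. brownii was the lowest C4-type species, just above F. pringlei. In juvenile leaves the C4-type values of NDHN were 387 RPM in F. trinervia, 371 in F. bidentis, 624.5 in F. palmeri, 412 in F. vaginata and 195 in F. brownii. Juvenile C3-type values were 147 RPM in F. angustifolia, 108 in F. sonorensis, 95.6 in F. pubescens, 111 in F. pringlei and 43.0 in F. cronquistii. F. palmeri was the highest juvenile library and F. cronquistii the lowest at both stages. NDHN was higher in C4-type leaves by 1.84 ± 0.30 (SE; limma adjusted p = 0.00189) on the log2 scale, the largest estimate among the 10 genes. NDHN did not pass within either stage.

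NDHO completes the nuclear part of subcomplex A. Mature libraries had 154 RPM in F. kochiana, 275 in F. trinervia, 232 in F. bidentis and 102 in F. brownii among C4-type species. The C3-type species had 27.7 RPM in F. angustifolia, 54.5 in F. pubescens, 61.9 in F. pringlei and 33.6 in F. cronquistii in mature leaves. No mature C3-type library reached the C4-type values, F. brownii again being the lowest of these. Juvenile values of NDHO were 341 RPM in F. trinervia, 219 in F. bidentis, 243 in F. palmeri, 191 in F. vaginata and 58.0 in F. brownii in the C4-type species. Juvenile C3-type species had 51.1 RPM in F. angustifolia, 124 in F. sonorensis, 74.7 in F. pubescens, 51.0 in F. pringlei and 30.6 in F. cronquistii. Here F. brownii was below F. sonorensis and F. pubescens, so the juvenile groups overlapped. NDHO was higher in C4-type leaves with a log2 fold change of 1.77 ± 0.34 (SE; limma adjusted p = 0.00979), and did not pass without F. cronquistii, with 1 value per species or within either stage.

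On the ferredoxin side, NDHS carries a domain that binds ferredoxin, the electron donor. NDHS in mature C4-type leaves was 427 RPM in F. kochiana, 556 in F. trinervia, 468 in F. bidentis and 328 in F. brownii. Mature C3-type leaves had 173 RPM in F. angustifolia, 145 in F. pubescens, 274 in F. pringlei and 162 in F. cronquistii. Juvenile C4-type leaves gave 598 RPM in F. trinervia, 498 in F. bidentis, 383 in F. palmeri, 281 in F. vaginata and 387 in F. brownii. NDHS was the 1 gene of the 10 whose 9 C4-type libraries, both stages pooled, all lay above all 9 C3-type libraries. The share of all loci so separated over both stages was not computed. F. brownii was within the range of the other C4-type species in juvenile leaves. Juvenile C3-type leaves had 135 RPM in F. angustifolia, 275 in F. sonorensis, 62.1 in F. pubescens, 179.8 in F. pringlei and 96.9 in F. cronquistii. The gap was narrow, between F. vaginata and F. sonorensis. NDHS was higher in C4-type leaves, with a log2 fold change of 1.37 ± 0.30 (SE; limma adjusted p = 0.0213). It did not pass under TMM scaling (adjusted p = 0.057 in limma), with 1 value per species, within either stage, or without 5 of the 11 species, F. angustifolia, F. bidentis, F. cronquistii, F. palmeri and F. trinervia.

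NDHT and NDHU are J-like proteins, related to DnaJ-type co-chaperones, that sit at the foot of the ferredoxin site. NDHT in mature C4-type leaves was 137 RPM in F. kochiana, 275 in F. trinervia, 239 in F. bidentis and 64.8 in F. brownii. The mature C3-type values were 133 RPM in F. angustifolia, 43.0 in F. pubescens, 194 in F. pringlei and 45.3 in F. cronquistii. F. pringlei exceeded F. kochiana and F. brownii, and F. angustifolia exceeded F. brownii. In juvenile leaves NDHT was 84.5 RPM in F. trinervia, 105 in F. bidentis, 67.5 in F. palmeri, 68.0 in F. vaginata and 40.8 in F. brownii. Juvenile C3-type leaves had 14.9 RPM in F. angustifolia, 52.0 in F. sonorensis, 10.01 in F. pubescens, 20.3 in F. pringlei and 10.2 in F. cronquistii. Among juvenile libraries the overlap came from F. sonorensis, which lay above F. brownii. The NDHT estimate was 1.39 ± 0.46 (SE; limma adjusted p = 0.177), which did not pass.

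NDHU in mature C4-type leaves was 159 RPM in F. kochiana, 216 in F. trinervia, 275 in F. bidentis and 76.5 in F. brownii. Mature C3-type leaves had 41.6 RPM in F. angustifolia, 85.6 in F. pubescens, 54.3 in F. pringlei and 41.1 in F. cronquistii. The overlap was between both clade B species, F. pubescens lying above F. brownii. Juvenile C4-type leaves had NDHU at 148 RPM in F. trinervia, 176 in F. bidentis, 154 in F. palmeri, 159 in F. vaginata and 59.4 in F. brownii. In juvenile C3-type leaves NDHU was 26.9 RPM in F. angustifolia, 42.8 in F. sonorensis, 37.6 in F. pubescens, 28.8 in F. pringlei and 32.0 in F. cronquistii. The juvenile groups did not overlap. NDHU was higher in C4-type leaves by a log2 fold change of 1.82 ± 0.27 (SE; limma adjusted p = 0.00124), with the smallest adjusted p among the 10 genes. It did not pass in mature libraries alone.

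CRR1 resembles a bacterial dihydrodipicolinate reductase and acts as an assembly factor in the stroma. CRR1 in mature C4-type leaves was 63.0 RPM in F. kochiana, 90.1 in F. trinervia, 126 in F. bidentis and 9.67 in F. brownii. Mature C3-type leaves had 17.4 RPM in F. angustifolia, 11.5 in F. pubescens, 17.6 in F. pringlei and 13.8 in F. cronquistii. F. kochiana, F. bidentis and F. trinervia stood well above the C3-type species, while F. brownii had the lowest value of all 18 libraries. In juvenile C4-type leaves CRR1 was 86.9 RPM in F. trinervia, 134 in F. bidentis, 116 in F. palmeri, 105 in F. vaginata and 41.9 in F. brownii. Juvenile C3-type leaves had 44.4 RPM in F. angustifolia, 18.4 in F. sonorensis, 28.4 in F. pubescens, 32.6 in F. pringlei and 39.1 in F. cronquistii, with F. angustifolia above F. brownii. CRR1 was higher in C4-type leaves, with a log2 fold change of 1.63 ± 0.37 (SE; limma adjusted p = 0.0289). The CRR1 call was lost under TMM scaling (adjusted p = 0.0578 in limma), with 1 value per species, within either stage, and without 6 of the 11 species, F. bidentis, F. cronquistii, F. palmeri, F. pringlei, F. pubescens and F. vaginata.

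CRR6 is a stromal protein needed at an early step of subcomplex A assembly. Mature C4-type leaves had CRR6 at 20.5 RPM in F. kochiana, 80.6 in F. trinervia, 56.3 in F. bidentis and 17.9 in F. brownii. CRR6 in mature C3-type leaves was 14.03 RPM in F. angustifolia, 12.3 in F. pubescens, 27.4 in F. pringlei and 30.3 in F. cronquistii. The values of F. cronquistii and F. pringlei were above those of F. kochiana and F. brownii. Juvenile C4-type leaves had 71.0 RPM in F. trinervia, 41.0 in F. bidentis, 52.1 in F. palmeri, 43.9 in F. vaginata and 9.03 in F. brownii. In juvenile C3-type leaves CRR6 was 15.4 RPM in F. angustifolia, 15.5 in F. sonorensis, 16.3 in F. pubescens, 9.60 in F. pringlei and 26.3 in F. cronquistii. F. brownii was the lowest juvenile library, and the other 4 C4-type species lay above every C3-type species. The CRR6 estimate of 0.97 ± 0.39 (SE; limma adjusted p = 0.296) did not pass.

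CRR7 is another soluble assembly factor, and its lowest value rested on 16 reads. Mature C4-type leaves had CRR7 at 23.4 RPM in F. kochiana, 31.6 in F. trinervia, 35 in F. bidentis and 7.07 in F. brownii. The mature C3-type values of CRR7 were 2.58 RPM in F. angustifolia, 16.9 in F. pubescens, 3.56 in F. pringlei and 2.94 in F. cronquistii. F. pubescens was the exception among mature C3-type species, lying above F. brownii but below F. kochiana. Juvenile CRR7 was 42.4 RPM in F. trinervia, 26.7 in F. bidentis, 42.4 in F. palmeri, 29.6 in F. vaginata and 13.4 in F. brownii in C4-type leaves. Juvenile C3-type values were 9.31 RPM in F. angustifolia, 5.44 in F. sonorensis, 25.99 in F. pubescens, 10.9 in F. pringlei and 11.5 in F. cronquistii, again with F. pubescens the highest and above F. brownii. CRR7 was higher in C4-type leaves by a log2 fold change of 1.64 ± 0.40 (SE; limma adjusted p = 0.0434). Of the 8 calls this one was lost most often. It did not pass under TMM scaling (adjusted p = 0.0609 in limma), with a pseudocount of 0.1, with no filter on low loci, with 1 value per species, within either stage, or without 9 of the 11 species, all but F. brownii and F. pubescens.

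Within a leaf stage the difference between types was also tested with 1 value per species, by an exact two-sided permutation test of mean log2(RPM + 1) without adjustment over these 20 tests. In juvenile leaves (5 against 5 species, smallest possible p 0.00794), 9 of the 10 genes were higher in C4-type species with an exact p under 0.05, against 4.29% of tested loci, and CRR6 had an exact p of 0.0873. In mature leaves (4 against 4 species, smallest possible p 0.0286), the exact test gave p under 0.05 for NDHM, NDHN, NDHO and NDHS, each at that smallest value, against 3.08% of tested loci. Without F. bidentis, F. kochiana or F. trinervia it did so for 2 genes, and the share of loci was not computed there. Genes whose C4-type species all lay above all C3-type species were NDHM, NDHN, NDHS and NDHU in juvenile leaves, against 0.974% of loci. In mature leaves they were NDHM, NDHN, NDHO and NDHS, against 3.08% of loci. With 4 against 4 species this restates the exact test, since full separation is what gives its smallest p. Without F. brownii, an omission chosen after its values were seen, such separation held for 10 of 10 genes in juvenile leaves (2.96% of loci) and for 8 of 10 in mature leaves (6.04% of loci).

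Set against the C3 species, the 3 C4 species were higher for 4 of the 10 genes, NDHL, NDHN, NDHO and NDHU, with 0.801% of tested loci called higher. Log2 fold changes were 2.58 ± 0.57 (SE) for NDHL, 2.42 ± 0.50 (SE) for NDHO, 2.20 ± 0.40 (SE) for NDHU and 2.14 ± 0.43 (SE) for NDHN. Their limma adjusted p-values were 0.029, 0.018, 0.00648 and 0.0156 in the same order. Of the 6 that did not pass, CRR7 had 2.25 ± 0.58 (SE, adjusted p = 0.063 in limma) and NDHM 1.48 ± 0.38 (SE, adjusted p = 0.0627). The other 4 were CRR1 with 2.07 ± 0.54 (SE), NDHT with 1.74 ± 0.67 (SE), NDHS with 1.54 ± 0.43 (SE) and CRR6 with 1.01 ± 0.57 (SE). The median over the 10 genes was 2.11, beside -0.12 over all tested loci. The count of 4 was 0 without F. bidentis (0.337% of loci) or F. cronquistii (0.166%) and 1 without F. trinervia (0.399%). With 1 value per species it was 0 (0.18% of loci), whereas edgeR, without a species term, called 8 (4.29% of loci). It was 0 in juvenile libraries alone (0.0619% of loci) and 0 in mature libraries alone (0.165%).

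Against the same C3 libraries, the C4-like species had positive estimates for all 10 genes and no gene that passed in limma, where 0.152% of tested loci were called higher. At an unadjusted p under 0.05, limma had 7 of the 10 genes and 927 of the 14479 loci, and edgeR 5 of the genes and 1721 of the loci. After adjustment edgeR called 0 of the 10 genes and 60 loci. The smallest adjusted p-values went with estimates of 2.06 ± 0.44 (SE) for NDHN (adjusted p = 0.064 in limma) and 1.69 ± 0.41 (SE) for NDHU (adjusted p = 0.128). Of the rest, NDHL had 1.70 ± 0.59 (SE), NDHO 1.66 ± 0.51 (SE), NDHM 1.39 ± 0.39 (SE), CRR7 1.38 ± 0.60 (SE) and NDHT 1.21 ± 0.69 (SE). NDHS with 1.098 ± 0.45 (SE), CRR1 with 0.90 ± 0.56 (SE) and CRR6 with 0.44 ± 0.59 (SE) were the 3 smallest. Without F. brownii both NDHN and NDHU were called, with 2.69 for NDHN and 2.34 for NDHU on the log2 scale (0.424% of loci higher), and without F. pringlei NDHN alone was called (0.0966%). The intermediates gave smaller differences from C3. Estimates for C3-C4 against C3 ran between -0.49 for CRR6 and 0.79 for NDHL, 7 of them positive, with a median of 0.22. Between these lay NDHO (0.53), NDHN (0.51), CRR7 (0.34), NDHU (0.26), NDHT (0.17), NDHM (0.12), NDHS (-0.11) and CRR1 (-0.29). None of the 10 genes passed in limma, none had an unadjusted p under 0.05 in limma or in edgeR, and limma called 0% of tested loci, 744 of which had an unadjusted p under 0.05. These 3 comparisons share the C3 libraries of F. pringlei and F. cronquistii. With SEs of 0.38 to 0.67, differences of the size of the C3-C4 estimates were not detectable.

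**Figure D2:**
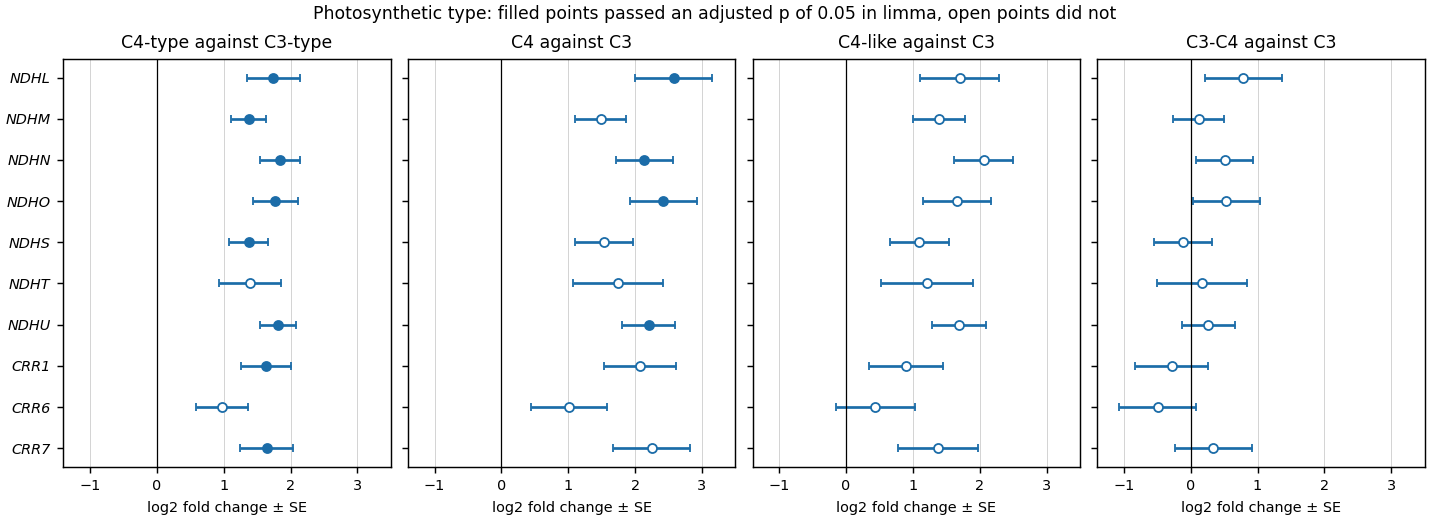
Log2 fold change of each gene (± SE, on the log2(RPM + 1) scale) for C4-type against C3-type, C4 against C3, C4-like against C3 and C3-C4 against C3 libraries. Filled points passed an adjusted p of 0.05, and estimates sit between 0.97 and 1.84 in the first panel but between -0.49 and 0.79 in the last.

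F. brownii, the C4-like species of clade B, had lower values than the clade A species. In mature leaves it lay below all 3 clade A C4-type libraries for 10 of the 10 genes, against 17.1% of tested loci. In juvenile leaves it lay below all 4 for 9 of the 10, NDHS being the exception, against 20.6% of loci. It lay above every C3-type library for 4 of 10 genes at each stage, where 35.9% of loci did so in mature and 19.9% in juvenile leaves. Set beside F. pubescens, the intermediate of its own clade, F. brownii was higher for 7 of 10 genes at each stage, with a median difference of 0.54 log2 units in mature and 0.60 in juvenile leaves. Over all tested loci that median was 0.36 in mature and 0.05 in juvenile leaves, and 67% of mature and 52.5% of juvenile loci were higher in F. brownii. The pair has 1 library per stage and species, so these differences have no replicate check. The mature F. brownii library also had the highest summed level of the senescence markers SAG12 and SEN1, 874.6 RPM, against 29.8 to 97.3 RPM in mature C3-type libraries, and the part of this in its NDH values was not tested.

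On the RPM scale, 5 of the 7 subunits rose and 2 of the 3 assembly factors fell in mature leaves, while under TMM scaling neither assembly factor passed as lower. Mature leaves had more NDHL, NDHM, NDHN, NDHT and NDHU mRNA than juvenile leaves of the same species, in 7 of 7 species for each gene, and less CRR1 and CRR7, in 6 of 7 species for each. Thus 5 of 10 genes rose and 2 fell. Over all 14500 tested loci, 12.7% were called higher and 37.6% lower. A difference of one sign in every species, as those 5 genes had, was seen in 8.53% of loci for higher. The fit was limma on the 14 libraries of the 7 species with both stages, with species as a block.

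NDHT had the largest rise, with a log2 fold change of 1.98 ± 0.28 (SE; limma adjusted p = 0.000147). Mature over juvenile ratios of NDHT were 9.58 in F. pringlei, 8.92 in F. angustifolia, 4.45 in F. cronquistii and 4.3 in F. pubescens. They were 3.25 in F. trinervia, 2.27 in F. bidentis and 1.59 in F. brownii, so the 3 C4-type species had the 3 smallest ratios. The share of all loci with such an order was not computed. NDHM and NDHL rose by about the same amount, with log2 fold changes of 1.12 ± 0.17 (SE; limma adjusted p = 0.000227) for NDHM and 1.11 ± 0.18 (SE; limma adjusted p = 0.00043) for NDHL. NDHN rose by 0.80 ± 0.16 (SE; limma adjusted p = 0.00162) and NDHU by 0.65 ± 0.15 (SE; limma adjusted p = 0.00411). NDHO (-0.04 ± 0.19 SE, limma adjusted p = 0.865) and NDHS (0.35 ± 0.19 SE, limma adjusted p = 0.141) did not pass, NDHO being higher in mature leaves of 4 species and lower in 3, and its estimate turning positive under TMM scaling.

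Among assembly factors CRR1 was lower in mature leaves, with a log2 fold change of -0.98 ± 0.24 (SE; limma adjusted p = 0.00476). Its mature over juvenile ratio was 0.231 in F. brownii, between 0.352 and 0.541 in the 4 C3-type species, 0.936 in F. bidentis and 1.04 in F. trinervia. CRR7 was lower with -0.86 ± 0.24 (SE; limma adjusted p = 0.0105), its ratios running between 0.256 in F. cronquistii and 1.31 in F. bidentis. The CRR6 estimate of 0.38 ± 0.21 (SE; limma adjusted p = 0.157) did not pass, with 5 species higher and 2 lower.

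Scaling bears on these directions. The median log2 fold change of all loci was -0.31 on the RPM scale and -0.0012 after TMM scaling. Relative to that shift, 7 of the 10 genes rose and 0 fell under TMM scaling, where 23.1% of loci were higher and 22% lower. NDHS (0.70) and CRR6 (0.71) joined the higher genes, the estimate of NDHO turned positive (0.30), and CRR1 (-0.65) and CRR7 (-0.54) no longer passed. The 5 dividing cell markers AUR1, MCM2, CDKB2;1, CYCB1;1 and PCNA1 summed to between 8.19 and 27.7 RPM in mature and between 45.9 and 190.6 RPM in juvenile libraries, with CYCB1;1 at 0 in 7 libraries. All 4 of those markers that were tested fell in mature leaves. Their part in the NDH differences was not tested.

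**Figure D3:**
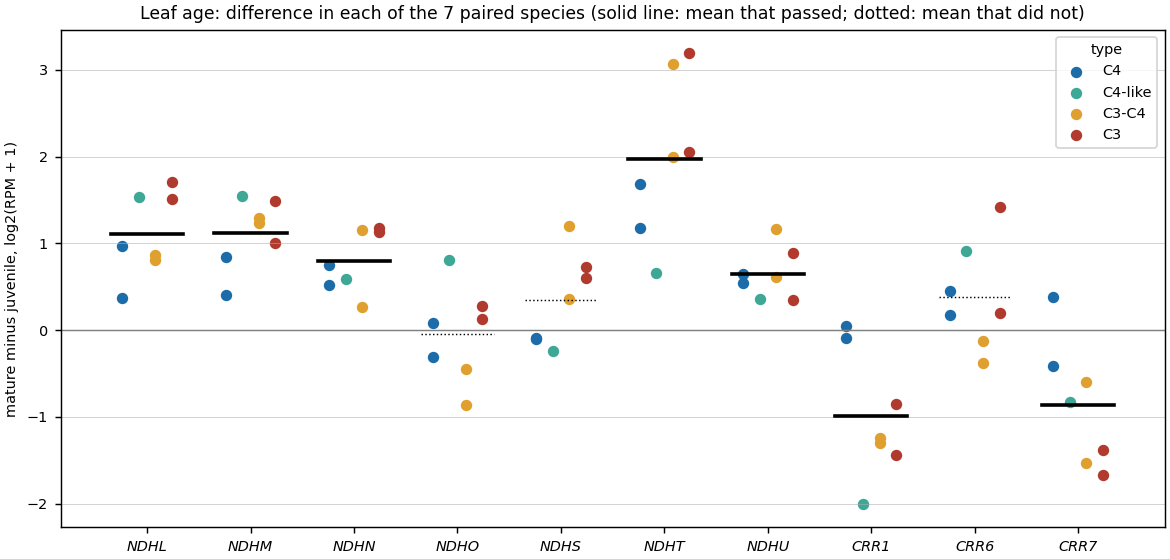
Mature minus juvenile difference of log2(RPM + 1) for each gene in each of the 7 species with both stages, coloured by type. Bars are means, solid where the gene passed an adjusted p of 0.05, and NDHT shows the widest spread, between 0.65 in F. brownii and 3.20 in F. pringlei.

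Whether the leaf-age difference itself differed between C4-type and C3-type species was tested on the 7 differences, 3 against 4. No gene passed in limma, and 0% of 14500 loci did, 1027 of which had an unadjusted p under 0.05. Of the 10 genes, NDHT, NDHS and CRR7 had an unadjusted p under 0.05. NDHT rose by a mean of 1.17 log2 units in the C4-type and 2.58 in the C3-type species, a difference of -1.41 ± 0.41 (SE, adjusted p = 0.648 in limma). NDHS averaged -0.14 in the C4-type and 0.73 in the C3-type species, a difference of -0.87 ± 0.30 (SE, adjusted p = 0.648 in limma). CRR7 averaged -0.29 in C4-type and -1.29 in C3-type species, a difference of 1.00 ± 0.41 (SE, adjusted p = 0.664 in limma). For the other 7 genes that difference ran between -0.32 for NDHM and 0.52 for CRR1, with NDHN at -0.31, NDHL at -0.26, NDHU at -0.24, CRR6 at 0.24 and NDHO at 0.42.

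The rest of the NDH complex was read from lists by locus. The 11 other nuclear subunits, which form subcomplex B, the lumen subcomplex and NDHV, had 9 of 11 higher and 0 lower in C4-type leaves, with a median log2 fold change of 1.71. Of all tested loci, 0.974% were called higher and 0.428% lower. PNSB2 (2.06, limma adjusted p = 8.26e-05) and PNSB1 (2.0, adjusted p = 0.000318), both of subcomplex B, led that list, followed by PNSL3 (1.82) of the lumen side and PNSB4 (1.81). The count of 9 was 7 under TMM scaling (0.822% of loci higher) and 4 with 1 value per species (0.414%). NDHV (1.09, adjusted p = 0.177 in limma), a ferredoxin-side subunit like NDHS, did not pass. Factors for RNA processing of the chloroplast ndh transcripts, with the chaperonin subunit CRR27 and the assembly factor PAM68L, had 0 of 7 called, with a median of 0.13. That count is near the share of all tested loci. The same list had 0 of 7 called by edgeR, and PAM68L (1.23) was the 1 gene of it with an unadjusted p under 0.05 in limma. Whether that list differed from CRR1, CRR6 and CRR7 was not tested.

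The chloroplast genome carries the remaining subunits, and 10 of its 12 ndh genes were read here. None passed between types in limma, near the share of all tested loci (0.974% higher and 0.428% lower). In limma ndhC (-1.23) and ndhK (-1.22) had an unadjusted p under 0.05, and edgeR called 1 lower (264 of 14479 loci lower). Of the antimycin-sensitive cyclic route and the light-harvesting proteins that tie NDH to photosystem I, 1 of 5 was higher in C4-type leaves. It was LHCA5 (1.72, limma adjusted p = 0.0342), a linker protein, and TMM scaling left 0 of 5 (0.822% of loci higher). PGR5 (0.89), PGRL1A (1.05), PGRL1B (1.01) and LHCA6 (0.85) had positive estimates that did not pass.

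With leaf age, the 11 other nuclear subunits had 3 higher, NDHV (0.96), PNSL2 (0.79) and PNSB5 (0.54), and 1 lower, PNSL5 (-1.18), a cyclophilin-type protein of the lumen. The RNA processing list had 0 of 7 higher and 4 lower, CRR27 (-2.28), CRR21 (-0.76), CRR22 (-0.73) and CRR28 (-0.59). In the cyclic route 3 of 5 rose, PGRL1B (1.41), PGRL1A (1.35) and PGR5 (0.83). Of the chloroplast ndh genes 5 of 10 rose, led by ndhC (2.03), ndhJ (1.44), ndhK (1.26) and ndhA (0.85). TMM scaling gave 5 higher and 1 lower, 0 higher and 1 lower, 4 higher and 0 lower, and 6 higher and 0 lower for these lists in the order given. Beside these counts, 12.7% of all tested loci were called higher and 37.6% lower on the RPM scale. Under TMM scaling the shares were 23.1% and 22%.

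**Figure D4:**
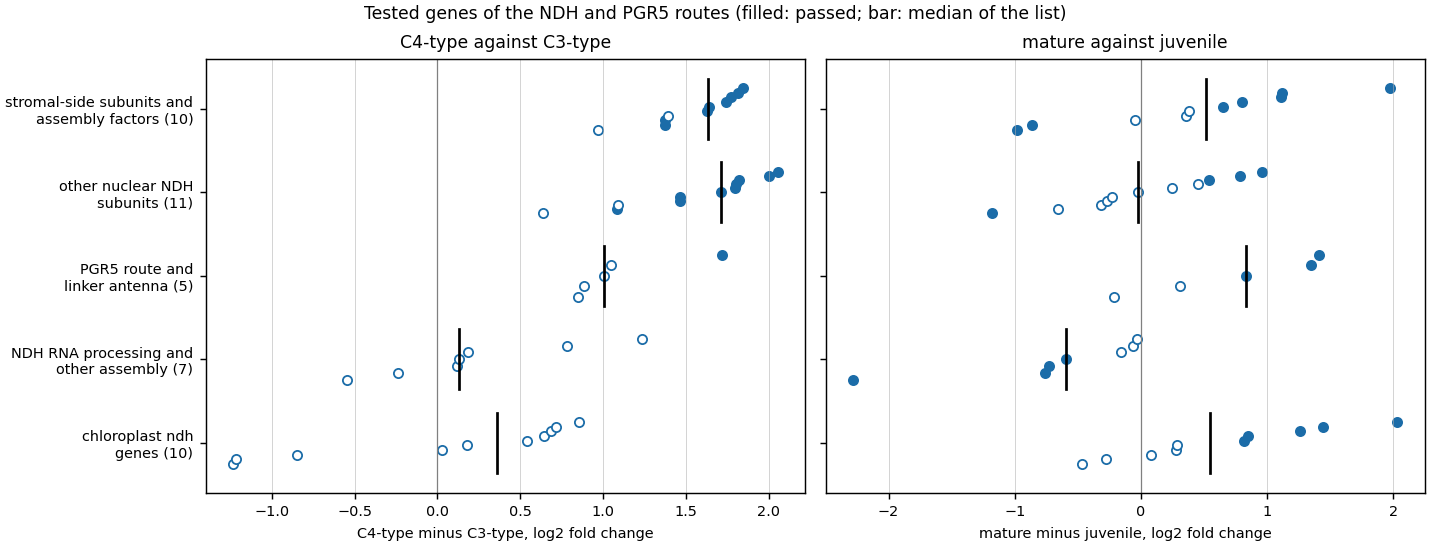
Log2 fold change of each tested gene of the NDH and PGR5 routes, for C4-type against C3-type (left) and mature against juvenile leaves (right). Filled points passed an adjusted p of 0.05, and bars are list medians. The list of the 10 genes, subunits with assembly factors, and that of the other nuclear subunits have medians above 1.6 on the left. The processing factors lie to the left of 0 on the right, where the median of all tested loci was itself -0.31. Of these factors CRR2 (-0.06), CRR4 (-0.16) and PAM68L (-0.04) lie above that median.

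For other tissues, of 4 dividing cell, 2 flower, 3 xylem, 2 phloem and 2 senescence markers tested, 0 were called between C4-type and C3-type leaves in limma, 0 had an unadjusted p under 0.05 and edgeR called 0. The 2 senescence markers had positive estimates, 1.02 and 1.13. Their summed level in mature leaves had a median of 153.8 RPM in C4-type and 38.7 RPM in C3-type libraries, with overlapping ranges. The part of senescence in the NDH differences was not tested. Of the 5 green leaf genes 2 were lower in C4-type leaves, RBCS1A (-2.25), the small subunit of Rubisco, and RCA (-1.59), its activase, while PSAD1 (0.44), LHCA1 (-0.14) and PSBO2 (-0.28) did not pass. In mature against juvenile leaves, 3 of 5 green leaf genes and 2 of 2 senescence markers rose, 3 of 3 xylem and 1 of 2 flower markers fell, and of the 2 phloem markers SUC2 rose and APL fell. Under TMM scaling 4 of 5 green leaf genes and 2 of 2 senescence markers rose, 1 of 3 xylem and 0 of 2 flower markers fell, and the dividing cell and phloem counts were as on the RPM scale. In edgeR the counts were those of TMM scaling. The shares of all loci called higher or lower with leaf age, on the RPM scale and under TMM scaling, are those given above.

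The profile of the 10 genes over the 18 libraries, taken as the mean of their standardised log2(RPM + 1), was set against that of 14469 other loci. The highest Spearman correlations were 0.963 for AT1G68520, 0.946 for AT5G58330, 0.922 for AT5G23440, 0.913 for AT3G55640 and 0.909 for PNSB4. Median levels in C4-type and C3-type libraries were 70.8 and 24.7 RPM for AT1G68520, 4737 and 543.3 RPM for AT5G58330, and 625.2 and 180.8 RPM for PNSB4. These correlations are descriptions over libraries that share species and ancestry. Among the 10 genes themselves the correlation with their mean profile was highest for NDHN (0.955) and lowest for CRR1 (0.633). That mean includes the gene itself, so these values cannot be compared with those of the other loci.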

How the data were processed

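The authors deposited 1 table of RPM, reads assigned to each of 20551 Arabidopsis loci scaled to 1e+06 per library, with 1 column for each of 18 Flaveria libraries. Per the submitters' processing notes the build is TAIR10. The read aligner, the counting rule and the handling of reads matching several loci are not given in the sources used here, so reads of related or duplicated Flaveria genes may have been merged or split. RNA was extracted with phenol and columns and sequenced from standard Illumina libraries, per the labels' protocols. All RPM values (100%) were whole multiples of 1 read (tolerance 0.001 of a read), which gave totals of 5.40 to 9.15 M reads. At these totals 3 reads, taken as the limit of a count of 0, equal 0.328 to 0.556 RPM, counting error only. The 3 out-group samples were not analysed here.

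Libraries were grouped by species and stage as labelled, and by photosynthetic type from textbook knowledge. Tests used limma 3.58.1 in R 4.3.3 on log2(RPM + 1) with a mean-variance trend, after loci averaging under 2 RPM were set aside, with p-values adjusted by Benjamini-Hochberg over all tested loci (threshold 0.05). Fold changes are on that scale, which understates changes of low loci. Stages were compared within the 7 species that had both, with species as the block, a pairing that the labels give. Types were compared in 18 libraries with stage as covariate and species as random block (estimated correlation 0.493, statmod 1.5.0), so those p-values rest partly on libraries, and they do not measure spread between plants. C4-type averages the fitted C4 and C4-like levels, and C3-type those of C3 and C3-C4. Exact permutation tests (every split of the species counted, numpy 2.4.6) are given without adjustment, although adjustment over the 20 tests had been planned.

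Alternatives were TMM scaling, pseudocounts of 0.1 and 5, no filter, no species block, 1 value per species with the stage difference removed, 1 leaf stage, each species left out in turn, and edgeR 4.0.16 (quasi-likelihood) on the recovered reads. The last had no species term in the fits of types, so both libraries of a species counted as independent there. It called 8 of 10 genes higher in C4-type leaves, and 637 loci in all. Alternatives for the exact tests, and the omission of F. brownii, were chosen after seeing the data. The fits were also run on simulated data. Those had independent libraries and no species effect, unlike the real libraries, so the error rate in the real design was not tested. The 10 genes and the lists were chosen with earlier results of these data known. All 10 genes entered every comparison, and each is given with its estimate, with an adjusted p for some only. Of other lists, at most the 4 called genes with the largest change are named, besides checks, genes that did not pass and are given as values, and the 5 loci most alike in profile.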

Additional observations from a re-analysis of the deposited data

Results flagged for a closer look

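Among 50 groups of 4 to 10 libraries examined for a value far from the others, 5 held one, where independent groups would give about 1 in 20, or 2.5. Groups of different genes hold the same libraries and are not independent, so 5 cannot be judged against 2.5. In juvenile C4-type leaves (5 species) F. brownii was the low value for 4 genes, with log2(RPM + 1) of 5.87 for NDHL, 8.08 for NDHM, 5.92 for NDHU and 3.33 for CRR6. In mature C3-type leaves (4 species) F. pubescens was the high value for CRR7, at 4.16. F. brownii and F. pubescens are the clade B species, and each value is 1 library.

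On the RPM scale NDHS had leaf-age differences of opposite sign in C4-type and C3-type species. It was lower in mature than in juvenile leaves of all 3 C4-type species, with differences of -0.09 in F. bidentis, -0.11 in F. trinervia and -0.24 log2 units in F. brownii. In all 4 C3-type species it was higher, with differences between 0.36 and 1.21. The share of all loci with such opposite signs was not computed. The median of all loci was -0.28 in F. bidentis, -0.34 in F. trinervia and -0.05 in F. brownii, so NDHS lay above it in F. bidentis and F. trinervia. The difference between C4-type and C3-type species was -0.87 ± 0.30 (SE), tested in limma over the 7 species, and it did not pass (adjusted p = 0.648). Under TMM scaling and with a pseudocount of 0.1 it did not pass either. Over all 7 species, NDHS was called higher in mature leaves under TMM scaling (0.70, limma adjusted p = 0.0186).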

How the results depend on the processing

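For leaf age, the 2 genes that fell were 0 under TMM scaling (22% of loci lower) and 0 in edgeR (3062 of 14500 loci lower). Without the species block 2 genes rose and 0 fell, and 3840 loci passed, 739 higher and 3101 lower. For C4-type against C3-type, the 8 higher genes were 4 under TMM scaling, 2 with 1 value per species, 1 in juvenile libraries alone and 0 in mature libraries alone. Loci that passed were 637 in edgeR, 76 with 1 value per species, 36 in juvenile and 7 in mature libraries. For C4 against C3, genes called were 8 in edgeR and 0 with 1 value per species, in juvenile or in mature libraries, with 1123, 33, 12 and 29 loci. For C4-like against C3, loci were 46 with no filter, 60 in edgeR and 0 with 1 value per species or within a stage. For C3-C4 against C3 they were 10 with no filter, 14 in edgeR and 2 in mature libraries. The 1-stage fits hold fewer libraries, and the edgeR fits of types had no species term. The causes of the changes were not tested.

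With each species left out in turn, leaf age kept 5 genes higher and 2 lower (6023 to 7187 loci). C4-type against C3-type had 2 to 8 genes and 83 to 413 loci, C4 against C3 had 0 to 6 genes and 38 to 261 loci, and C4-like against C3 had 0 to 2 genes and 3 to 79 loci. C3-C4 against C3 had 0 genes and 0 to 19 loci, stage by type 0 genes and 0 to 1 loci, and the exact tests 7 to 10 genes in juvenile and 2 to 5 in mature leaves. For the exact tests with a species left out, the share of all loci was not computed.

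Signs that turned were those of estimates that had not passed. For leaf age, NDHO was 0.30 under TMM scaling and 0.31 in edgeR, and between -0.187 and 0.0908 with each species left out, above 0 without F. angustifolia or F. pubescens. For C4-like against C3, CRR6 ran between -0.0069 (without F. pringlei) and 1.21, and mature libraries alone, with F. brownii as the 1 C4-like species, gave -0.53 for NDHT, -0.64 for CRR1 and -0.66 for CRR6. For C3-C4 against C3 the ranges were -0.23 to 1.78 for NDHL, -0.40 to 0.64 for NDHM, -0.17 to 1.17 for NDHN and -0.59 to 0.89 for NDHT, the lowest each without F. cronquistii. In the same comparison they were -0.53 to 0.29 for NDHS (positive without F. pringlei or F. pubescens) and -0.41 to 0.69 for CRR7 (negative without F. pubescens). NDHM was also below 0 without F. angustifolia, and NDHT without F. sonorensis. NDHT was -0.0122 in edgeR, NDHS 0.0022 and CRR7 -0.0026 in juvenile libraries, and NDHO -0.22 and NDHT -0.31 in mature libraries. In stage by type, NDHL ran between -0.552 and 0.0305, above 0 without F. bidentis.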
